A study of Saccharomyces cerevisiae with 8 samples.

Results

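The ribosomal DNA (rDNA) array of *Saccharomyces cerevisiae* lies on chromosome XII, where sacCer3 (R64) holds 2 of its tandem units, with the 35S precursor genes RDN37-1 and RDN37-2, and 6 copies of the 5S gene, RDN5-1 to RDN5-6. Peaks of accessible chromatin over it were selected by their measured position, as every peak called on the stretch that starts at 450000 and ends between RRT15 and MAS1. The window held 88 of the 9025 peaks in 8 ATAC-seq libraries, against 682 on the rest of chromosome XII. Because position chose these peaks, their number, place and height are described here and were not tested against the rest of the chromosome.

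ATAC-seq uses a transposase to cut and tag open DNA. The 4 strains had the laboratory background BY4741 and carried human *HPRT1*, or *HPRT1R* with the same sequence reversed but not complemented, as a synthetic locus. *HPRT1R* and *HPRT1* were each kept either as an episome (YAC), in cultures grown in SC-Leu, or integrated on chromosome XI, in cultures grown in YPD, with 2 independent clones per strain. All cultures were grown at 30 °C, for 6 h after dilution, to mid-log phase. Episomal context and medium changed together and cannot be told apart, and no strain without a synthetic locus was analysed here.

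Each rDNA unit encodes a precursor transcribed by RNA polymerase I, which is processed to the 18S, 5.8S and 25S ribosomal RNAs, and a 5S gene transcribed in the opposite direction by RNA polymerase III. The intergenic spacer is divided by the 5S gene. NTS1, beyond the 3′ end of 25S, holds the replication fork barrier bound by Fob1 and the bidirectional promoter E-pro, and NTS2, upstream of the precursor, holds a replication origin and the RNA polymerase I promoter. A yeast chromosome carries many more tandem units than the reference shows, and only a part of them is transcribed at a time.

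Overlapping peaks of the 8 libraries joined into 13 places, numbered W1 to W13 along the chromosome. The 300 bases around the median summit of the recurrent places are shown because these places had a peak in all 8 libraries. They are from the plus strand of R64, which is opposite to the 35S transcript. Capitals mark the 21 bases centred on the summit, except in W5, where they mark the only match of TTACCCG, the Reb1 motif, in any of these stretches. W1 and W2 stand also for W7 and W8, whose bases are identical. RDN5-1 and RDN5-4 are shown on their coding strand, with the bases that follow the stretch common to all 6 copies in capitals.
W13, 25S-like segment, chrXII:489966-490265: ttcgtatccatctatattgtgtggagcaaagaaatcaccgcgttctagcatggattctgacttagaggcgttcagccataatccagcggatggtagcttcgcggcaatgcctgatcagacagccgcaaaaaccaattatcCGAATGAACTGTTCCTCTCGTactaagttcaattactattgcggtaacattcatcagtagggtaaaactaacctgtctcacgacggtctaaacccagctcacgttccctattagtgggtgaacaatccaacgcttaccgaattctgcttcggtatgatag
W4, NTS1-2, chrXII:460040-460339: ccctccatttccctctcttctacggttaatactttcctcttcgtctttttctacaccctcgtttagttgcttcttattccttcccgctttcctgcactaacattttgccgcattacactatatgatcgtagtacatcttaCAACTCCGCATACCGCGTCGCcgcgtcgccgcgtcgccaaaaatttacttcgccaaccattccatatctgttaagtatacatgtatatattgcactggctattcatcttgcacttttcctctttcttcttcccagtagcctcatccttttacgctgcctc
W1, RDN25-1, chrXII:454371-454670: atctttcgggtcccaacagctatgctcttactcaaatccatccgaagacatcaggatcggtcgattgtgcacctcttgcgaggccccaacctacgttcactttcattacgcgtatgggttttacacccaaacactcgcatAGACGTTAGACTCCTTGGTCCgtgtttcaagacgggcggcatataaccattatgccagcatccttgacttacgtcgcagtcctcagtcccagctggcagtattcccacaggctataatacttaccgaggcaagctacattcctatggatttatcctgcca
W2, RDN18-1, chrXII:456041-456340: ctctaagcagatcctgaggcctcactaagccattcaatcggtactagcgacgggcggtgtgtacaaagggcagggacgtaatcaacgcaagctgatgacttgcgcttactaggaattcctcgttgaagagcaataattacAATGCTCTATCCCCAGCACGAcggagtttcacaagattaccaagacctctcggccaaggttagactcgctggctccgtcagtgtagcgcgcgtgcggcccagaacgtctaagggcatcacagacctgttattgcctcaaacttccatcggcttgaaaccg
W5, RDN25-2, chrXII:461963-462262: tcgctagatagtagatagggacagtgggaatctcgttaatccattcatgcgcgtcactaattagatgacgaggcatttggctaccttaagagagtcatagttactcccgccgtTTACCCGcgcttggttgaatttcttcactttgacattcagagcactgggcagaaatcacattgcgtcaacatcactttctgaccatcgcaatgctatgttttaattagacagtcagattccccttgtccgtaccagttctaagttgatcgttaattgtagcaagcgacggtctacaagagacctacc
RDN5-1, chrXII:459676-459796: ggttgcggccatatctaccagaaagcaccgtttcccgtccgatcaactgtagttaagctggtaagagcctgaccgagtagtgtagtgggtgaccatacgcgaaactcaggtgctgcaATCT
RDN5-4, chrXII:482045-482163: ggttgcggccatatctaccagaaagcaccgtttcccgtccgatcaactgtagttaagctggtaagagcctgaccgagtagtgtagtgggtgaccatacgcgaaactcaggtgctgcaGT

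The 300 bases of W13 lie outside the tandem units but did not differ at any base from their match in RDN25-1. TTACCCG was searched on both strands, as were a run of 7 A and the ARS consensus. Of 40229 adjoining 300-base windows of the nuclear genome, 1.86% held TTACCCG, 24.7% the A run and 1.88% the ARS consensus. Neither the A run nor the ARS consensus had a match in the stretches shown. A match is a string of letters and no measure of binding, and the W5 bases also occur in RDN25-1. The tandem units had a GC content of 44.1%, against a median of 38.0% for the genome windows, and the summit stretches had between 44.7% (W4 and W5) and 52.3% (W2). The W5 stretch is centred on the median summit 462113. In 4 libraries the W5 summit was at 462378, outside the stretch shown, so its GC content and TTACCCG match do not describe that summit.

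**Figure D1:**
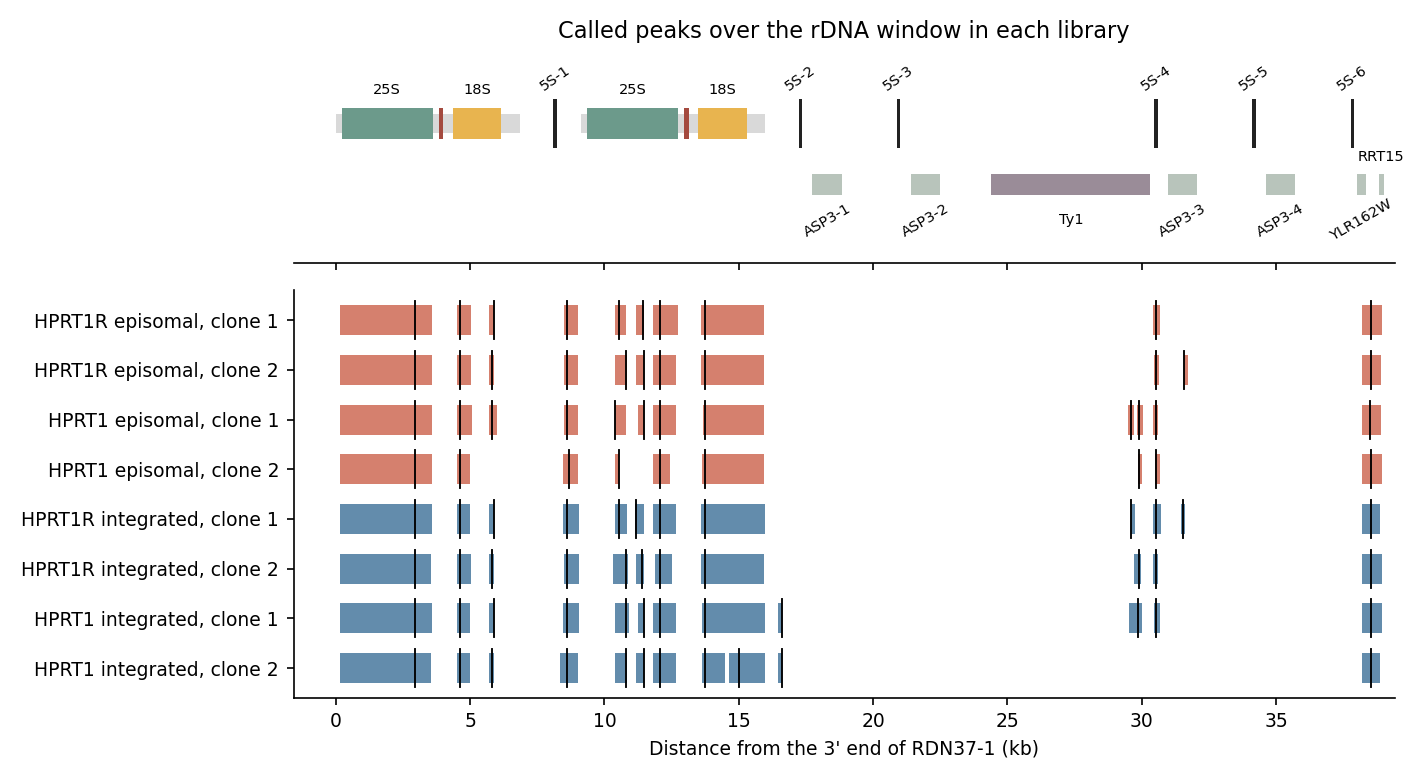
Called peaks in each library (bars; episomal above integrated) with their summits (black lines), against the distance in kb from the 3′ end of RDN37-1; genes are drawn above. Peaks at 7 places, over 25S, NTS1 and 18S sequences and at the far right, recur in all 8 libraries, and among the 5S genes only RDN5-4 carries called peaks.

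Peaks in the array recurred. Of the 13 places, 7 (53.8%) had a peak in all 8 libraries and 0 were found in a single library. W1 and W7 are copies of the same bases, as are W2 and W8, so these 7 places are not independent. Over the nuclear genome, 500 of 1840 places (27.2%) had a peak in all 8 libraries, and on the rest of chromosome XII this was 39 of 152 (25.7%). The share depended on how peaks were joined. With a reciprocal overlap of at least 50%, 6 of 18 rDNA places (33.3%) had a peak in all 8 libraries and 4 were found in a single library, against 259 of 2963 places (8.74%) in all 8 over the nuclear genome. The summits were often at the same base. W1 had its summit at 454521 and W2 at 456191 in 8 libraries each, W7 at 463658 in all 8, W8 at 465328 and W4 at 460190 in 7 of 8. The weak summit of W5 moved between 461976 and 462378.

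The 35S genes were covered in part, and in different parts in RDN37-1 and RDN37-2. Both genes have identical bases and share their fragments. The differences below are therefore between calls, and show no difference in accessibility between the units. Peaks covered 57.1% to 62.9% of RDN37-1 and 45.1% to 58.7% of RDN37-2 across libraries. Within RDN37-1, W1 (451719 to 455165) spanned 97.7% to 99.5% of RDN25-1, the large-subunit rRNA gene, and with it all of TAR1, a protein-coding gene antisense to 25S. W2 (456081 to 456656) and W3 (457278 to 457590) lay in RDN18-1, the small-subunit rRNA gene, W2 in all 8 libraries and W3 in 7. Within RDN37-2, W5 (461904 to 462483), W6 (462728 to 463063) and W7 (463382 to 464298) lay in RDN25-2, of which 23.3% to 48.4% was covered. W6 was missing in the same library as W3, *HPRT1* episome clone 2. W8 (465161 to 467558) covered 84.2% to 94.9% of RDN18-2 and 93.0% to 98.4% of ETS1-2, the external spacer at the start of the transcript, and ended short of the start of the precursor at 467569. No library had a peak over the internal spacers ITS1 and ITS2, the 5.8S genes RDN58-1 and RDN58-2, or ETS1-1.

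The spacers differed. NTS1-2 carried W4 (459901 to 460613) in all 8 libraries, which covered 56.8% to 77.3% of it. NTS2-1 carried no peak, and NTS2-2 carried W9 (468034 to 468188) only in the *HPRT1* integrated clones. The summit of W9 at 468182 lies in ARS1200-2, an rDNA replication origin, where the pileup, the number of fragments that cover the base, was 987 and 876 in these clones. The bases of W9 are identical in NTS2-1, where no peak was called in any library.

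Of the 5S genes, RDN5-1, RDN5-2, RDN5-3, RDN5-5 and RDN5-6 carried no peak in any of the 8 libraries. RDN5-4 had one in 7 (W11, 481981 to 482301). Fold enrichment is the pileup over the background that the peak caller assigned to the surroundings, with 1 added to each. At RDN5-4 it was 5.94 and 8.20 in the *HPRT1R* episome clones and 5.47 and 4.78 in the *HPRT1* episome clones. Against these, it was 11.6 and 6.22 in the *HPRT1R* integrated clones and 8.86 in clone 1 with *HPRT1* integrated. Clone 2 with *HPRT1* integrated had no peak there, and the episomal and integrated values overlapped. The pileup was between 53 and 114 fragments. YLR157C-C, annotated on the opposite strand, overlaps RDN5-4, and this assay does not separate strands.

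The 6 copies share their first 117 bases, as the sequences above show, so that reads of 36 bases from inside the gene fit all of them alike. Identical sequence therefore stood beside different calls. The local background was an average over up to 10 kb. RDN5-1 and RDN5-2 lie within the tandem units, RDN5-3 lies 3534 bp beyond their end, and RDN5-5 and RDN5-6 lie 3938 and 284 bp from the 25S-like segment of W13. RDN5-4 lies 13114 bp from the tandem units and 7590 bp from that segment. At RDN5-4 the local background was 1.44 to 1.72 times the genome-wide background of its library. Whether distance from the array sets which 5S copy is called was not tested.

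The stretch between RDN5-2 and W13, with the ASP3 genes for cell-wall asparaginase, had few other peaks. ASP3-1, ASP3-2 and ASP3-4 had none, and ASP3-3 had a peak (W12) in *HPRT1R* episome clone 2 and *HPRT1R* integrated clone 1, with fold enrichments of 2.76 and 2.49. W10 (481063 to 481619) lay in the 5′ part of the Ty1 retrotransposon YLRCTy1-1 in 5 libraries, with fold enrichments of 2.35 to 3.29, overlapping YLR157C-B and YLR157C-A, its protein-coding genes. YLR157W-E, between Ty1 and RDN5-4, was overlapped in 4 libraries. Of the words of 36 bases in YLRCTy1-1, 99.4% occur more than 1 time in the reference, and of those in each ASP3 gene 100% occur 4 times.

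W13 (489766 to 490526) was the strongest peak of the window by fold enrichment. It lies between YLR162W, of which it covered 44.5% to 45.9%, and RRT15, of which it covered 13.2% to 64.0%. Its fold enrichment was 16.2 and 18.2 in *HPRT1R* episome clones and 18.1 and 16.6 in *HPRT1* episome clones, against 16.8 and 16.5 in *HPRT1R* integrated clones and 16.6 and 16.1 in *HPRT1* integrated clones, so the contexts overlapped. The peak sits on a segment of 790 bp (489753 to 490542) that matches RDN25-1 (451785 to 452574) with 8 mismatches, an identity of 98.99%. The segment shares 300 of 300 bases with 25S at the summit of W13, so fragments of 25S and of this segment cannot be told apart there. The flanks of the window carried no peaks. The nearest peak lay 4846 to 9792 bp to the left, beyond the tRNA-Gln gene YNCL0009C and RNH203, a ribonuclease H2 subunit, and 7617 to 23931 bp to the right, beyond MAS1, a subunit of the mitochondrial processing peptidase, and had the genome-wide background.

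**Figure D2:**
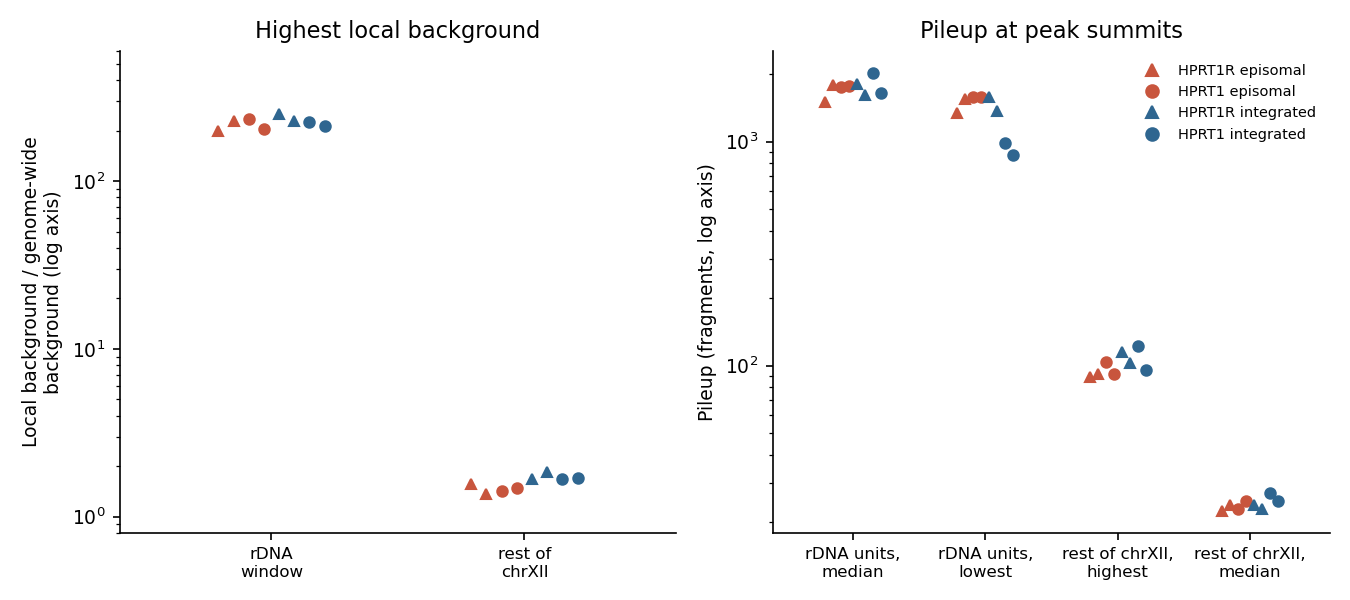
Highest local background over the genome-wide background of the library (left, log axis) and pileup at summits in fragments (right, log axis), with 1 point per library. The rDNA window lies at 199 to 250 times the genome-wide background and the rest of chromosome XII at 1.37 to 1.84 times, and the lowest pileup in the tandem units exceeds the highest one on the rest of chromosome XII in every library.

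The array stood far above the rest of the chromosome in pileup. The highest local background in the window, relative to the genome-wide background of the library, was 199 and 229 in the *HPRT1R* episome clones and 234 and 206 in the *HPRT1* episome clones, against 250 and 227 in the *HPRT1R* integrated clones and 226 and 214 in the *HPRT1* integrated clones. On the rest of chromosome XII the highest ratio was 1.37 to 1.84. Every nuclear peak whose local background exceeded 10 times the genome-wide value lay in the window, 6 to 10 per library, and 0 lay outside it. At the summits in the tandem units the pileup ranged from 876 to 3266 fragments. On the rest of chromosome XII the median pileup was 22.5 to 27 and the highest 89 to 123.

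Read as mean coverage, the highest local background would place 28.7% to 36.2% of all fragment bases of a library in the tandem units. This is an estimate, since it takes the highest local background for the mean of the 17357 bp and 12000000 bp as the size of the genome. CUP1, another tandem repeat that the reference holds in 2 copies (CUP1-1 and CUP1-2, metallothionein genes on chromosome VIII), had a local background of at most 1.53 times the genome-wide value. These copies span only 212535 to 214718, so an average over 10 kb also takes in their flanks, unlike in the rDNA units. The highest CUP1 pileup of a library was 42 to 70 fragments, against a highest pileup of 89 to 123 on the rest of chromosome XII. Mitochondrial DNA, which is also multi-copy, reached 7.02 to 9.76 times in episomal and 4.47 to 6.47 times in integrated libraries, without overlap. Whether this bears on ratios to the genome-wide background was not tested. The number of rDNA units in these clones was not measured, so more units and more accessibility per unit cannot be told apart.

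Fold enrichment gave the opposite order, as it is measured against the surroundings. Its median over the tandem peaks of a library was 1.38 to 1.58, against 3.28 to 3.89 on the rest of chromosome XII. Peaks in the tandem units were also wider, up to 3446 bp, against at most 1575 bp on the rest of the chromosome.

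The units are repeats to the aligner. RDN37-1 and RDN37-2 are part of a stretch of 8375 bp (451418 to 459792) that recurs base for base 9137 bp further along. In the tandem units 95.4% of 36-base words occur more than 1 time in the reference, against 5.87% on the rest of chromosome XII. NTS1-2 is the exception, with 86.1% of its words in a single copy, since the reference holds the spacer between its units only here. At the W4 summit the pileup was 1762 to 3266 for 1 reference copy, and multiplying pileup by the number of copies gave 3000 to 4580 at W1 and W7 (2 copies) and 2379 to 3219 at W13 (3 copies). Pileups of places with unlike numbers of copies are therefore not on 1 scale. W4 also sets 1 reference copy against a background averaged mostly over sequence with 2 copies. Its fold enrichment and its call are therefore not on 1 scale with those of 2-copy places. What copy number adds to them was not tested.

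**Figure D3:**
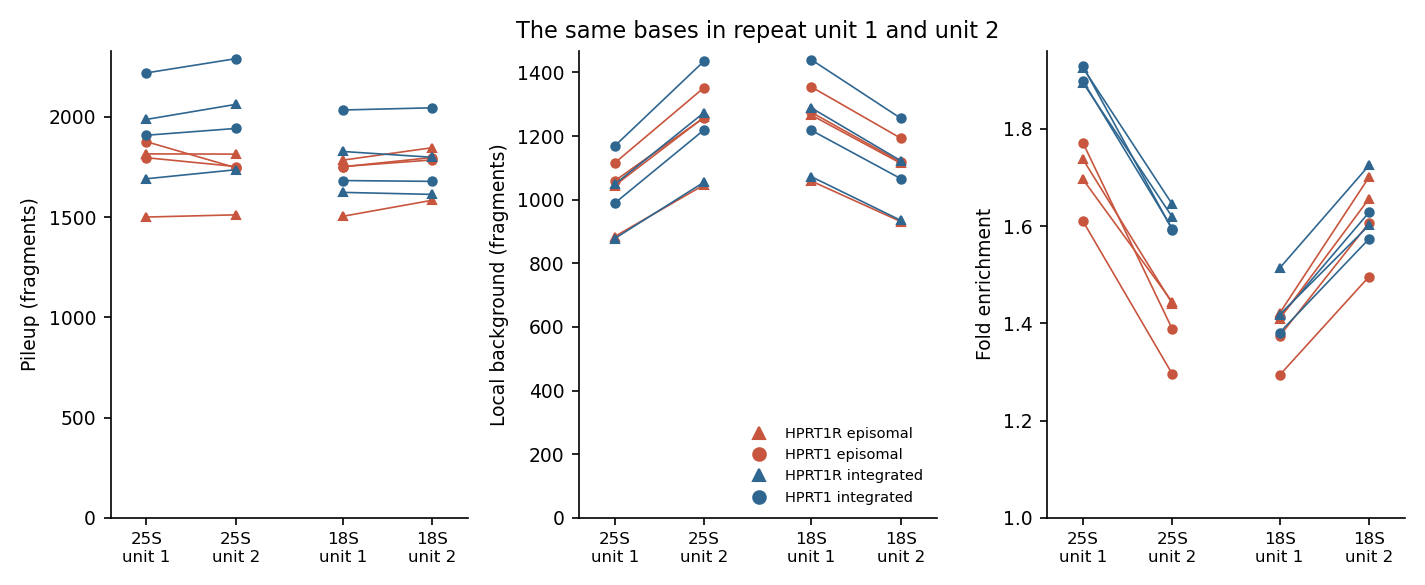
Pileup, local background (both in fragments) and fold enrichment at the same 25S bases (W1 and W7) and 18S bases (W2 and W8) in unit 1 and unit 2, with a line per library. Pileup is nearly the same in both units, whereas local background and fold enrichment differ and do so in opposite directions for 25S and 18S.

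Identical bases gave the same pileup and a different fold enrichment. The ratio of pileups in unit 1 over unit 2 was 0.964 to 1.07 at the 25S summits W1 and W7, and 0.949 to 1.02 at the 18S summits W2 and W8. The local background was lower in unit 1 at 25S, with ratios of 0.811 to 0.845, and higher in unit 1 at 18S, with ratios of 1.14 to 1.15. The fold enrichment in *HPRT1* episome clone 1, for example, was 1.77 at W1 and 1.39 at W7, with 1876 and 1746 fragments. W1 and W8 lie nearer to the ends of the tandem stretch than W7 and W2, and the background window of 10 kb reaches past those ends. Since the 2 copies share their fragments, W1 and W7 are not independent, and neither are W2 and W8.

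**Figure D4:**
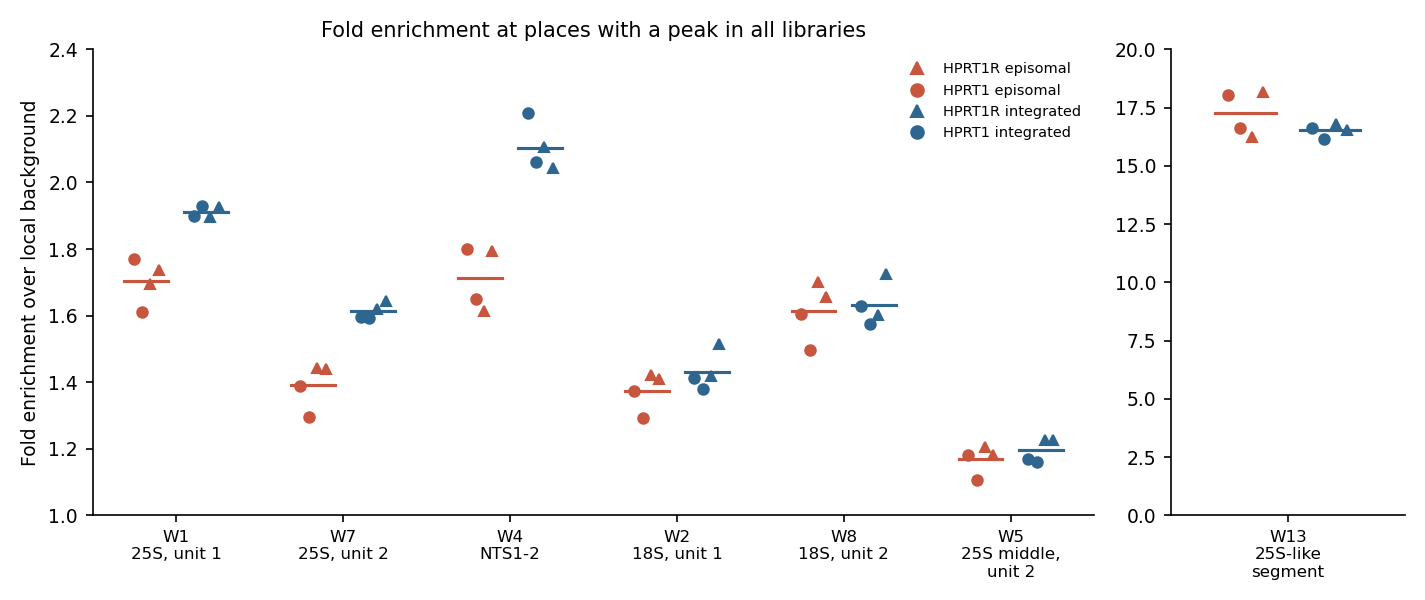
Fold enrichment over local background at the places with a peak in all libraries, with 1 point per library and the mean of 4 as a line (the left axis starts at 1, no enrichment). Episomal libraries lie below all integrated libraries at W1, W7 and W4, and overlap with them at W2, W8, W5 and W13.

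The next question was whether the array differed between strains with episomal and integrated loci. Its level did not separate them. The highest local background over the genome-wide background averaged 217 ± 17.1 in episomal and 229.5 ± 15.3 in integrated libraries (SD, n = 4 each), a log2 difference of -0.08 (exact two-sided permutation test, p = 0.343; 70 arrangements, smallest possible p 0.0286). Between loci it averaged 226.5 ± 21.2 in *HPRT1R* and 220 ± 12.4 in *HPRT1* libraries (SD, n = 4 each), a log2 difference of 0.04 (exact permutation test, p = 0.629), and its sign turned without *HPRT1R* integrated clone 1 (-0.01). Tests over 4 against 4 libraries treat the clones as independent, and the p-values cover only the spread between these libraries.

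Within the array, the NTS1 summit W4 and the 25S summits W1 and W7 separated the contexts, whereas the 18S summits did not. W4, in NTS1-2, had a fold enrichment of 1.61 and 1.79 in *HPRT1R* episome clones and 1.80 and 1.65 in *HPRT1* episome clones, against 2.11 and 2.04 in *HPRT1R* integrated clones and 2.21 and 2.06 in *HPRT1* integrated clones. All 4 episomal values lay below all 4 integrated ones. The log2 difference was -0.30 (SE 0.12). An exact permutation test of this place alone gave p = 0.0286, the smallest possible, which any 4 against 4 values without overlap give. The adjusted p was 0.217 in limma over all 500 nuclear places with a peak in every library.

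W7, in RDN25-2, had 1.44 and 1.44 in *HPRT1R* episome clones and 1.39 and 1.30 in *HPRT1* episome clones, against 1.62 and 1.64 in *HPRT1R* integrated clones and 1.59 and 1.59 in *HPRT1* integrated clones. These values did not overlap either, with a log2 difference of -0.21 (SE 0.11; exact permutation p = 0.0286; limma adjusted p = 0.342). W1, which shares the bases of W7, averaged 1.70 ± 0.0696 in episomal and 1.91 ± 0.0177 in integrated libraries (SD, n = 4 each), again without overlap (log2 difference -0.17, SE 0.12; exact permutation p = 0.0286; limma adjusted p = 0.454).

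The 18S places overlapped between contexts. W8 averaged 1.61 ± 0.0881 in episomal and 1.63 ± 0.0657 in integrated libraries (SD, n = 4 each). Its log2 difference was -0.02 (SE 0.12, exact permutation p = 0.8, limma adjusted p = 0.954). W2 averaged 1.37 ± 0.0575 in episomal and 1.43 ± 0.0572 in integrated libraries (SD, n = 4 each). Its log2 difference was -0.06 (exact permutation p = 0.229, limma adjusted p = 0.819). W5, in the middle of RDN25-2, gave -0.03 (exact permutation p = 0.4, limma adjusted p = 0.895). W13 gave 0.06 (exact permutation p = 0.257, limma adjusted p = 0.798). That the places of the array differed from each other in their response to context was not tested.

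Across the genome, fold enrichment of all 4 episomal libraries lay below all 4 integrated ones at 40 of 500 places (8%), and at 3 of the 7 rDNA places. Of these 3, W1 and W7 are copies of the same bases. W2 and W8 are also copies of each other, so the 7 places are not independent. By limma, 3 of 500 places (0.6%) were lower and 0 (0%) were higher in episomal libraries, and 0 of the 7 rDNA places were called, with 1 (W4) at an unadjusted p under 0.05, against 93 of all 500. The median log2 difference was -0.06 over the rDNA places and -0.14 over all 500, so a shift toward lower fold enrichment in episomal libraries was general. When the prior variance in limma was allowed to depend on the mean, an alternative chosen after seeing the data, W4 and W7 were called (adjusted p = 0.00275 and 0.000188). Over all 13 alternatives the adjusted p of W4 ranged from 0.00275 to 0.379 and that of W7 from 0.000188 to 0.493.

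Pileup relative to the genome-wide background separated the contexts at W4 and W7 but not at W1. W1 and W7 are copies of the same bases, so their unlike outcome is no evidence of a difference between places. At W1 it was 259 to 326 in episomal and 318 to 367 in integrated libraries, which overlap (log2 difference -0.23; limma adjusted p = 0.348). At W4 it was 313 and 403 in *HPRT1R* episome clones and 411 and 334 in *HPRT1* episome clones, against 513 and 451 in *HPRT1R* integrated clones and 488 and 432 in *HPRT1* integrated clones, without overlap (log2 difference -0.37, SE 0.15; limma adjusted p = 0.160). At W7 the range was 253 to 312 in episomal and 324 to 380 in integrated libraries (log2 difference -0.30, SE 0.14; limma adjusted p = 0.232). At W8 it was 257 to 317 in episomal and 280 to 332 in integrated libraries, which overlap (log2 difference -0.09, limma adjusted p = 0.715). Exact permutation tests of single places gave p = 0.0571 at W1, 0.0286 at W4 and W7, and 0.343 at W8. Of the 7 rDNA places, 2 had all episomal values below all integrated ones, against 41 of 500 places (8.2%) in all. By limma 11 of 500 places (2.2%) were lower and 0 (0%) higher in episomal libraries. None of the 7 rDNA places was among them, with 2 at an unadjusted p under 0.05, against 105 of all 500. With a prior variance that depends on the mean, chosen after seeing the data, 16 of 500 places were called, W4 among them (limma adjusted p = 0.0498). The median log2 difference in pileup was -0.17 over all 500 places and -0.14 over the rDNA places. Pileup was also divided by the median pileup of the places outside the window. W4 then went from -0.37 to -0.18, W7 from -0.30 to -0.10 and W1 from -0.23 to -0.03. The signs of W2, W5, W8 and W13 turned positive.

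A ratio of pileups within a library needs no background. W4 over W8 was 1.11 and 1.27 in *HPRT1R* episome clones and 1.32 and 1.30 in *HPRT1* episome clones, against 1.55 and 1.39 in *HPRT1R* integrated clones and 1.60 and 1.55 in *HPRT1* integrated clones. W7 over W8 was 0.954 to 0.983 in episomal and 1.08 to 1.16 in integrated libraries. W1 over W8, from the same bases as W7, was 0.947 to 1.04 in episomal and 1.05 to 1.14 in integrated libraries. These ratios over W8 did not overlap between contexts. For W1 this depended on dividing by W8 and not by W2, which has the same bases. Pileups at W1 and W2 were 1876 and 1751 in *HPRT1* episome clone 1. In *HPRT1R* integrated clone 2 they were 1691 and 1623. W1 over W2 was thus higher in that episomal library than in that integrated one, so the contexts overlapped. W13 over W8 was 0.501 to 0.566 in episomal and 0.511 to 0.57 in integrated libraries, which overlap. How often such ratios separate the contexts at other places was not computed. All ratios were formed after the values were seen and are descriptions without a test.

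The response to context was not shown to differ between *HPRT1R* and *HPRT1* at any rDNA place. The interaction of context and locus on fold enrichment was between -0.04 and 0.07 on the log2 scale for the 7 places, and limma called 0 of 500 places (19 at an unadjusted p under 0.05). On pileup the interaction was between -0.16 and -0.07, and limma called 0 of 500 (18 at an unadjusted p under 0.05). *HPRT1R* minus *HPRT1*, the log2 difference in fold enrichment was between -0.03 and 0.08 for the rDNA places. Limma called 0 of 500 (102 at an unadjusted p under 0.05). In pileup that difference was between 0.003 and 0.12, and limma called 0 of 500 (120 at an unadjusted p under 0.05).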

How the data were processed

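ATAC-seq gave 8 libraries, from 2 independent clones of each of 4 strains, with groups set by the labelled locus and context. The members, lists and comparisons were chosen with earlier results of these data known.

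The authors aligned paired reads of 36 bases with Bowtie2 2.2.9 to a sacCer3 reference that included the synthetic locus, and called peaks in each library with MACS2 2.1.0 on fragments, with duplicates kept, no control and a q threshold of 0.05. How reads with several best positions were placed is not given in the sources used here. The deposited lists give each peak's fold enrichment as a ratio, its −log10 p-value and q-value, and a score, which was not used. No step that shifts reads to the cut site is stated.

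Pileup and local background were solved for from fold enrichment and p-value. The misfit in −log10 p was at most 0.001 for 99.4% to 99.7% of peaks. In the window it reached 0.0033, at most 0.338 of the step between neighbouring counts. The lowest local background of a library, 4.97 to 6.93 fragments, was taken as its genome-wide background. The lists hold no read totals, so no counting intervals are given.

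Peaks that overlapped by at least 1 bp were joined into places, and the peak with the highest pileup stood for a library. The 500 nuclear places with a peak in all libraries were fitted with limma 3.58.1 (R 4.3.3) on log2 values without a pseudocount, with context and locus as terms and Benjamini-Hochberg adjustment at 0.05. Single values were tested with exact permutations in Python 3.11.15 (NumPy 2.4.6, SciPy 1.17.1). The steps were tested on simulated data. With changes placed at 50 of 500 places, limma called 95.8% of those of log2 1 and 57.7% of those of log2 0.5, with 3 false calls. The differences at the rDNA places were smaller than 0.5, so a place that was not called is not shown to be unchanged. Places were named by a rule that took the members, the parts of the 35S genes, ASP3, genes overlapped in at least 4 libraries, the flanking genes and CUP1. W9 and W12 and the ratios within the array were named after their values were seen.

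Alternatives were stricter q thresholds, reciprocal overlap of at least 50%, other averages and denominators, a pseudocount of 1, other model terms, a replicate block and each library left out, and, chosen after seeing the data, the peak with the highest fold and a prior variance that depends on the mean. Genes, coordinates and sequences are from RefSeq R64. Figures were drawn with matplotlib 3.10.9. Data from other yeast assays were not analysed here.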

Additional observations from a re-analysis of the deposited data

How the results depend on the processing

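The count of rDNA peaks was 65 to 88 under the stricter q thresholds, the summit rule and the tandem units alone. Places in all 8 libraries were 6 of 18 with a reciprocal overlap of at least 50% and 6 of 10 when −log10 q had to reach 10. Leaving out each library, chosen after seeing the data, gave 7 to 9 places in all remaining libraries. The median over libraries of the local background ratio was 227 from the highest background in the window, 204.8 from the median and 152.9 from the mean over the window peaks. Both averages include the places beyond the tandem units, where the background is lower.

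For the level of the array, leaving out each library gave log2 differences of -0.1185 to -0.039 for episomal minus integrated and of -0.0116 to 0.0996 for *HPRT1R* minus *HPRT1*. The number of nuclear places called on fold enrichment (3) was 1 with context alone and 9 with a prior variance that depends on the mean, and 0 to 3 when a library was left out (0 without *HPRT1* episome replicate 2, *HPRT1* integrated replicate 1, *HPRT1R* episome replicate 2 or either *HPRT1R* integrated replicate). That on pileup (11) was 0 after division by the median pileup outside the window and 0 to 45 when a library was left out, the 45 being without *HPRT1* episome replicate 1. The cause was not tested. For rDNA places, that division turned the pileup difference to 0.0532 at W2, 0.0837 at W5, 0.107 at W8 and 0.123 at W13. With each library left out, the pileup difference at W13 ranged from -0.151 to 0.0121 (positive only without *HPRT1R* episome replicate 1) and the fold difference at W8 from -0.0435 to 0.0104 (without *HPRT1* episome replicate 2). W4 and W7 kept a negative sign under every alternative run.

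Deviations of libraries with the same replicate number correlated at -0.05 to 0.05 across groups over the 500 places, so the numbers do not pair the clones. With the number as a replicate block, limma called 4 places on fold enrichment and 11 on pileup, and the array's local background gave exact p = 0.444 between contexts and exact p = 0.667 between loci. Peak counts depend on depth, and no read totals were in the lists.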
